A study of Mus musculus with 9 samples.

Results

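Translation is carried out by the ribosome, whose large and small subunits are each built from ribosomal RNA and a set of ribosomal proteins (Rpl and Rps genes in mouse), and is driven by initiation factors (Eif), which bring the ribosome to the start codon, and elongation factors (Eef), which move it along the message. These genes are among the most highly transcribed of growing cells, and most of their mRNA is spliced fast. A detained intron is one that stays in otherwise spliced, polyadenylated RNA kept in the nucleus, and the Clk kinases phosphorylate the SR proteins that help define splice sites.

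Introns were taken from the authors' intron table for mouse when their gene name began with Rpl or Rps and a digit, or with Rpsa, Rplp, Eif or Eef, leaving out Eif4a3 and the Rps6k kinases. This gave 444 of 22228 introns, in 127 of 7016 genes: 135 introns of 46 large subunit genes, 78 of 28 small subunit genes, 180 of 38 initiation factor genes, 30 of 6 elongation factor genes and 21 of 9 genes that carry such a name but have another function, among them Eif2c1, now called Ago1, an argonaute protein. The RNA came from v6.5 mouse embryonic stem cells, grown in serum with leukaemia inhibitory factor, to which KH-CB19, a Clk inhibitor in the solvent dimethyl sulfoxide (DMSO), or the solvent by itself had been added. Cells were harvested 2 h after the addition or immediately (0 h), so the 4 groups were KH-CB19 2 h, DMSO 2 h, KH-CB19 0 h and DMSO 0 h, with 2 libraries each that the labels call biological replicates. Both treatments share the DMSO solvent, and no group lacks it. RNA integrity numbers ran between 8.8 and 9.4. A further untreated library was not analysed here.

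Every value used here had already been combined over the 2 libraries of a group by the authors, so no spread between libraries can be given beside any value. Summed over all introns, the observed means came to 1002850 reads in KH-CB19 at 0 h and 1286590 reads in DMSO at 0 h, and the chosen introns held 6.38% of the reads in KH-CB19 and 6.61% in DMSO, although they were 2.00% of the introns. Their introns were short, with a median of 639.5 bases against 1946 bases over the table. All 11 embryonic stem cell marker genes had introns in the table, and none of the 15 markers of endoderm, mesoderm, ectoderm, trophoblast or fibroblasts did.

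Of the 444 introns, 52 in 40 genes were in the authors' detained class, 11.7% against 15.5% of all introns in the table. By role these were 14 introns of 11 large subunit genes, 4 of 4 small subunit genes, 27 of 19 initiation factor genes, 5 of 4 elongation factor genes and 2 in genes of other function. The share was thus lowest among small subunit introns at 5.13%, was 10.4% for the large subunit, and was 15.0% for initiation and 16.7% for elongation factors. In 30 genes 1 intron was detained, in 8 genes 2, and in Eif3a and Rpl24 it was 3. Only these 52 introns have values at 2 h.

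Of the 52 detained introns, 4 rose with KH-CB19 at 2 h and none fell, taking as changed those whose adjusted p (from the authors' deposited table) was below 0.05. The 3 described here were in Eif3b, a scaffold subunit of initiation factor eIF3, in Eif2a, an initiator tRNA binding factor that is not the eIF2 alpha subunit, and in Rpl7 of the large subunit. The 4 rises were 7.69% of the 52, against 5.47% of all 3454 detained introns, and falls were 4.17% of all of them. The authors' table as used here gives adjusted p-values alone, so no count of falls at an unadjusted threshold can be given. The largest of the 4 concerned 1 intron of Eif3b, with the other detained intron of the same gene next to it showing no rise.

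The exon junctions that the introns of Eif3b and Eif2a interrupt are shown because these 2 intervals are the rises that matched an annotated intron exactly in length. They were read from GENCODE M21 transcripts (GRCm38). Each line gives 25 bases of the exon before the intron in lower case and 25 bases of the exon after it in capitals, 5′ to 3′. In Eif3b the intron is the 13th of 18 in the annotated transcript, the quiet neighbour is the 14th, and the Eif2a intron is the 10th of 13, all between coding exons.
Eif3b intron 15: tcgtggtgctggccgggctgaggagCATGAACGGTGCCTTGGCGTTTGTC
Eif3b intron 20: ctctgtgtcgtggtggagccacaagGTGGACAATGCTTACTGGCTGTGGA
Eif2a intron 11: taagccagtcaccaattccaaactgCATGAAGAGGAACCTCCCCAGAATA

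Eif3b intron 15 (mm9 chr5:140914349-140915866, plus strand, 1518 bases) had an authors' normalised mean of 149 reads in KH-CB19 and 47.0 reads in DMSO at 2 h, a log2 ratio of 1.67 with an adjusted p of 3.73e-07 in the authors' deposited table. At 0 h its observed means were close, at 72.5 reads in KH-CB19 and 68.0 reads in DMSO. The next intron, Eif3b intron 20 (mm9 chr5:140916006-140916939, 934 bases), had normalised means of 37.5 reads in KH-CB19 and 42.4 reads in DMSO at 2 h, a log2 ratio of -0.18 with an adjusted p of 0.886 in the authors' deposited table. Before the 2 h of exposure both introns held about the same excess over expectation, the DMSO 0 h values being 68.0 observed against 30.5 expected for intron 15 and 53.5 observed against 23.5 expected for intron 20. In KH-CB19 at 0 h intron 15 had 72.5 against 27 and intron 20 had 48 against 20.5. Only intron 15 was called there, with adjusted p-values of 0.000292 and 0.0831 in the authors' deposited table. The difference between the 2 introns was not tested. Of the 7 other Eif3b introns, which have no 2 h value, intron 13 also stood above expectation in DMSO at 0 h, with 48.5 reads observed against 23.5 expected and an adjusted p of 0.0233 in the authors' deposited table. In KH-CB19 at 0 h it had 30 observed against 20.5 expected and was not called, with an adjusted p of 0.376 in the authors' deposited table.

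Eif2a intron 11 (mm9 chr3:58352887-58356490, plus strand, 3604 bases) had 164 normalised reads in KH-CB19 and 91.2 in DMSO at 2 h, a log2 ratio of 0.85 with an adjusted p of 0.0117 in the authors' deposited table. Its 0 h means were 86.0 reads in KH-CB19 and 113 reads in DMSO, a difference in the other direction that is as large as the offset of all introns between these groups: after centring on the median intron it was -0.08 on the log2 scale. The other 6 Eif2a introns of the table were not classed as detained.

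To set the time points side by side, each intron's 2 h mean was divided by its 0 h mean and the log2 value centred on the median detained intron of that treatment, since 0 h means are unscaled. On that scale Eif3b intron 15 stood at 1.03 in KH-CB19 and -0.21 in DMSO, and Eif2a intron 11 at 0.91 in KH-CB19 and 0.01 in DMSO. These centred values rest on group means and carry no test.

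Rpl7 intron 7 (mm9 chr1:16092656-16092787, minus strand, 132 bases) had 193 normalised reads in KH-CB19 and 121 in DMSO at 2 h, a log2 ratio of 0.67 with an adjusted p of 0.0477 in the authors' deposited table, close to the threshold. Its 0 h means were 143.5 reads in KH-CB19 and 157.5 in DMSO. Its centred 2 h to 0 h value was 0.41 in KH-CB19 and -0.06 in DMSO.

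**Figure D1:**
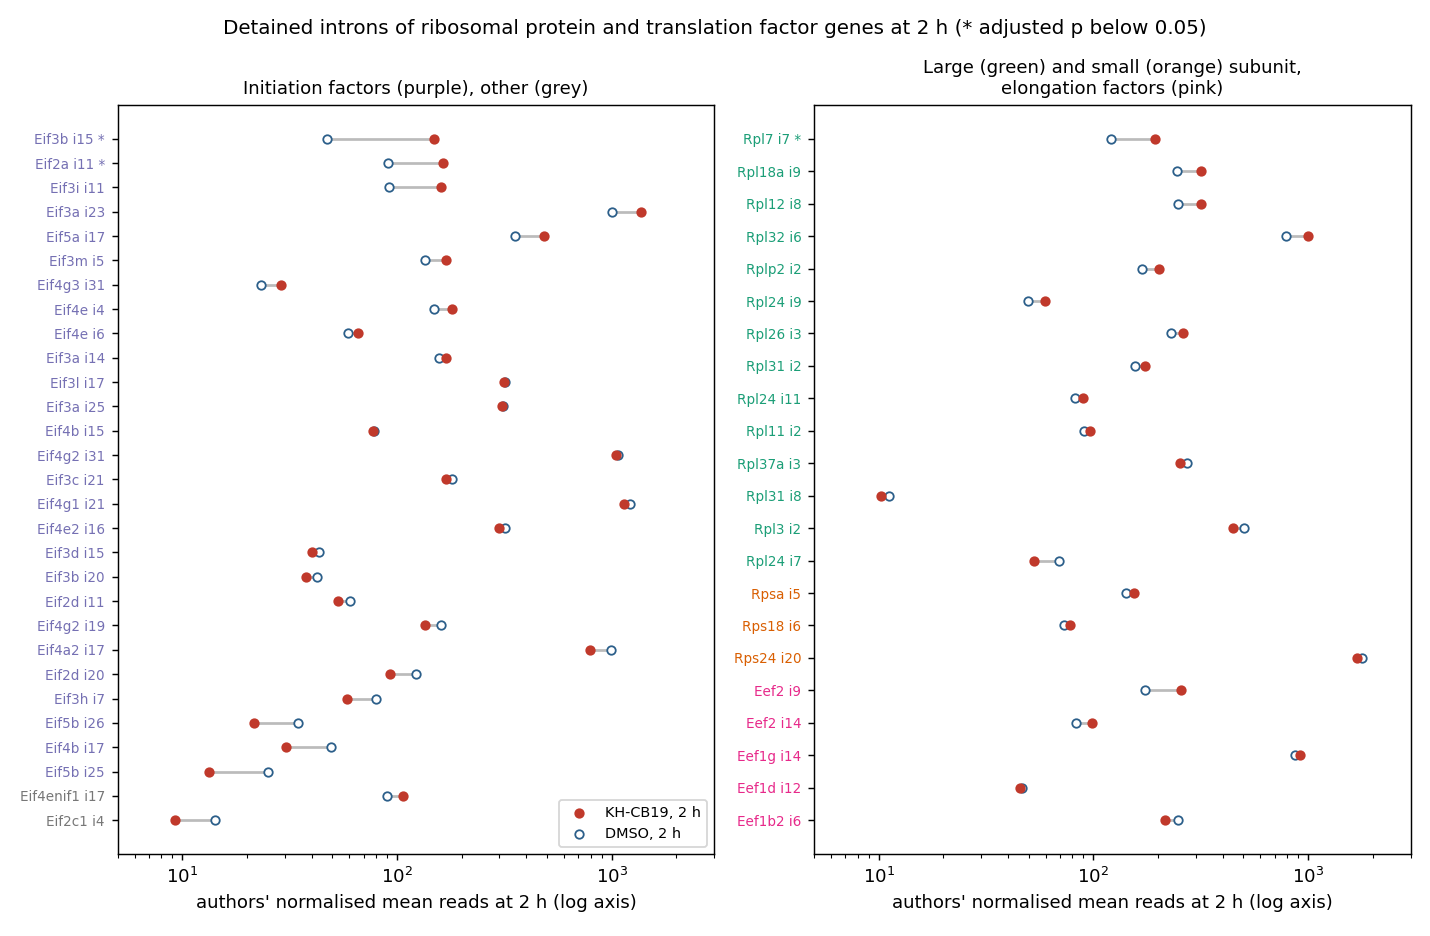
The authors' normalised mean reads at 2 h (log axis) of 51 detained introns in KH-CB19 (filled red) and DMSO (open blue), each row 1 intron (i15 is intron 15), grouped by role and ordered by ratio. The longest bar is Eif3b i15, at 149 in KH-CB19 and 47.0 in DMSO, and asterisks mark the 3 introns shown with an adjusted p below 0.05.

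The other 48 detained introns did not pass the threshold. Over all 52, 27 log2 ratios were above 0 and 25 below, with a median of 0.08 against 0.00 over all detained introns. Of the 52, 42 (80.8%) lay within 0.5 of 0 on the log2 scale, against 66.5% of all 3454 detained introns. The members' means were also higher than is usual in the table, with a median observed mean of 67.0 reads against 26 reads over all introns in DMSO at 0 h. The part of read level in the narrower range was not tested.

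The large subunit introns had a median log2 ratio of 0.17, with 10 of 14 above 0 and 1 past the threshold. Rpl32 intron 6 had 998 normalised reads in KH-CB19 and 791 in DMSO, a log2 ratio of 0.34 with an adjusted p of 0.261 in the authors' deposited table. In Rpl24, 3 detained introns differed in sign: the authors' deposited table gives a log2 ratio of -0.39 for intron 7, 0.27 for intron 9 and 0.12 for intron 11, none past the threshold. The lowest level among large subunit introns was in Rpl31 intron 8, with 10.2 normalised reads in KH-CB19 and 11.2 in DMSO, while Rpl31 intron 2 had 174 in KH-CB19 and 156 in DMSO.

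Of the 4 small subunit introns, Rps24 intron 20 had the highest 2 h level of the 52, with 1689 normalised reads in KH-CB19 and 1782 in DMSO, a log2 ratio of -0.08 with an adjusted p of 0.886 in the authors' deposited table. It lies in the 3′ untranslated part of an annotated transcript, and a retained-intron transcript covers it whole. Rpsa intron 5 had 155 normalised reads in KH-CB19 and 141 in DMSO, and Rps18 intron 6 had 78.2 in KH-CB19 and 73.1 in DMSO.

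The 27 initiation factor introns had a median log2 ratio of -0.03, with 10 above 0 and 17 below. They spanned the widest range, between the 1.67 of Eif3b intron 15 and -0.91 for Eif5b intron 25 in the authors' deposited table. Eif5b, the GTPase that joins the subunits, had 2 neighbouring detained introns with low means: intron 25 had 13.3 normalised reads in KH-CB19 and 25.1 in DMSO, and intron 26 had 21.6 in KH-CB19 and 34.6 in DMSO. Both were lower in KH-CB19, with adjusted p-values of 0.470 and 0.401 in the authors' deposited table. Beside Eif3b, 7 other eIF3 subunit genes had detained introns (Eif3a, Eif3c, Eif3d, Eif3h, Eif3i, Eif3l and Eif3m), and of these Eif3i intron 11 had the largest log2 ratio at 0.79, with 159 normalised reads in KH-CB19, 92.1 in DMSO and an adjusted p of 0.183 in the authors' deposited table. Eif4a2 intron 17, in a helicase of the cap-binding complex, had 790 normalised reads in KH-CB19 and 987 in DMSO, with an adjusted p of 0.316 in the authors' deposited table.

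Among the 5 elongation factor introns, Eef2 intron 9, in the translocation factor gene, came nearest to the threshold. Its normalised means were 257 reads in KH-CB19 and 174 in DMSO at 2 h, a log2 ratio of 0.56 with an adjusted p of 0.0866 in the authors' deposited table. At 0 h its observed mean was lower in KH-CB19, with 170 reads against 432 in DMSO, and its centred 2 h to 0 h value was 0.58 in KH-CB19 and -0.99 in DMSO, the lowest of the 52 in DMSO. Eef2 intron 14 had 98.6 normalised reads in KH-CB19 and 83.1 in DMSO. Eef1g intron 14, in a subunit of the exchange factor complex, had 915 in KH-CB19 and 870 in DMSO.

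**Figure D2:**
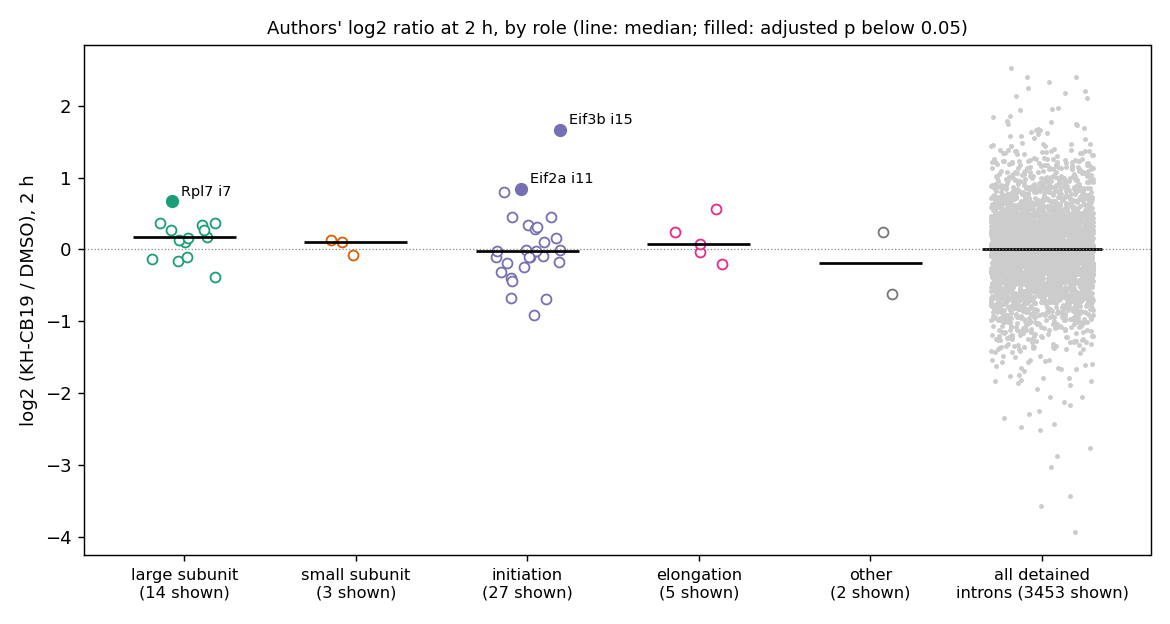
The authors' log2 ratio of KH-CB19 to DMSO at 2 h for each detained intron, by role, beside 3453 detained introns of the table (grey), with the median as a line and filled points past the threshold. The members' medians lie between -0.19 and 0.17, and the 3 filled points are all above 0.

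At 0 h the comparison is of observed with expected reads within each group, where the expected count is the authors' and how it was made is not given in the sources used here. Within a gene the expected counts of the KH-CB19 and DMSO groups kept 1 ratio: in 72 member genes with at least 2 introns of 50 or more expected reads, the ratios of 2 introns differed by at most 1.02 times. In KH-CB19, 93 of 414 introns with values (22.5%) were above expectation and 102 (24.6%) below by the same threshold, applied to the adjusted p of the authors' deposited table, against 27.6% above and 8.93% below over all introns. In DMSO, 95 of 437 (21.7%) were above and 125 (28.6%) below, against 28.2% above and 10.9% below over all introns. Thus calls below expectation made up a larger share of the member introns than of the table in both groups, a difference that was not tested. Which direction was the more frequent among the members depended on read level: with an observed mean of at least 50 reads, 76 were above and 40 below in KH-CB19, and 80 above and 49 below in DMSO. Those calls below expectation were 17% of the members that met the minimum in KH-CB19, against 5.19% of all such introns, and 19.1% in DMSO, against 6.16%, while calls above were 32.3% in KH-CB19, against 59.9%, and 31.1% in DMSO, against 59.7%. A minimum on observed reads removes introns with fewer reads than expected more often than others. The median log2 ratio of the members was 0.00 in both groups, against 0.60 in KH-CB19 and 0.53 in DMSO over the table. Of the members, 81 introns were above in both groups, 94 were below in both, and none was called in opposite directions. The like counts over the whole table were not made, so these have no background beside them.

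The share below expectation was 26.2% in KH-CB19 and 31.1% in DMSO for the large subunit, 28.6% in KH-CB19 and 32.5% in DMSO for the small subunit, 21.7% in KH-CB19 and 26.9% in DMSO for initiation factors, and 36.7% in each group for elongation factors. The 21 introns of genes with another function had no call below expectation and a median log2 ratio of 1.32 in KH-CB19 and 1.11 in DMSO. Their median observed mean in DMSO was 18 reads, and no member with a value had fewer than 10. Most had expected means so low that a call below had little room. The part of read level in these values was not tested.

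Eef1a1, the factor that delivers aminoacyl-tRNA to the ribosome, had the member intron with the highest observed mean in DMSO and, past the threshold with at least 50 reads, the one with the lowest ratio. Its intron 9 had 3026.5 reads observed against 1868.5 expected in KH-CB19 and 9129 observed against 4473 expected in DMSO. Its intron 2 had 222 observed against 2036 expected in KH-CB19 and 321.5 observed against 4874.5 expected in DMSO, which the authors' deposited table gives as a log2 ratio of -3.92 in DMSO. Intron 9 was not in the detained class. None of the 5 Eef1a1 introns matched an annotated intron in length, so coding bases inside them could not be counted. By the measures of copies given below, Eef1a1 has 2 named pseudogenes and a near-identical coding sequence in 6 other genes.

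Other low ratios were in Eef2 intron 2 (38.0 observed against 280 expected in KH-CB19, and 50.5 against 441.5 in DMSO), Rps15 intron 3 (81.0 against 928 in KH-CB19, and 92.5 against 755 in DMSO) and Rpl10a intron 2 (128.5 against 590.5 in KH-CB19, and 111.5 against 627.5 in DMSO). Each lies in a gene that has other introns at or above expectation. In Rpl10a, for example, intron 5 had 972 reads observed against 557.5 expected in KH-CB19 and 944.5 against 592 in DMSO. In these genes and in Eef1a1 the expected reads of the listed introns add up to nearly their observed reads. An intron far below expectation is then offset by others above it, so the high introns are no separate result. The same near-equal sums hold in Rpl4, Rpl3 and Rpl32. Rpl27, with 1 listed intron, had 989.5 reads observed and 989.5 expected in DMSO. They do not hold in every gene: in Eif4g3 and Eif3e the listed introns have fewer reads expected than observed. Calls above and below within a gene of near-equal sums are thus not independent.

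Outside the detained class, and among introns past the threshold with at least 50 reads observed in DMSO, the largest ratio in DMSO was that of Rpl4 intron 21, with 164.5 reads observed against 35 expected in KH-CB19 and 474.5 observed against 61.0 expected in DMSO. Rps15 intron 7, whose ratio was above that of Rpl4 intron 21 in KH-CB19, had 3946 observed against 707 expected in KH-CB19 and 3023.5 against 575 in DMSO. Eef2 intron 21 had 509 against 144.5 in KH-CB19 and 767 against 227 in DMSO. Long introns were also among them: Eif4g3 intron 2, of 51198 bases, had 94.0 observed against 30 expected in KH-CB19 and 114.5 against 36.5 in DMSO, and Eif3e intron 12, of 8752 bases, had 75 against 23.0 in KH-CB19 and 112.5 against 36.0 in DMSO. Rpl4, Rps15 and Eef2 are among the genes of near-equal sums. Laid over gene models as described below, Rpl4 intron 21 held 35 coding bases of 127 and Eef2 intron 21 held 58 of 321. The 2 long introns held none, and Rps15 intron 7 could not be placed. The part of mRNA reads in these ratios was not tested.

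**Figure D3:**
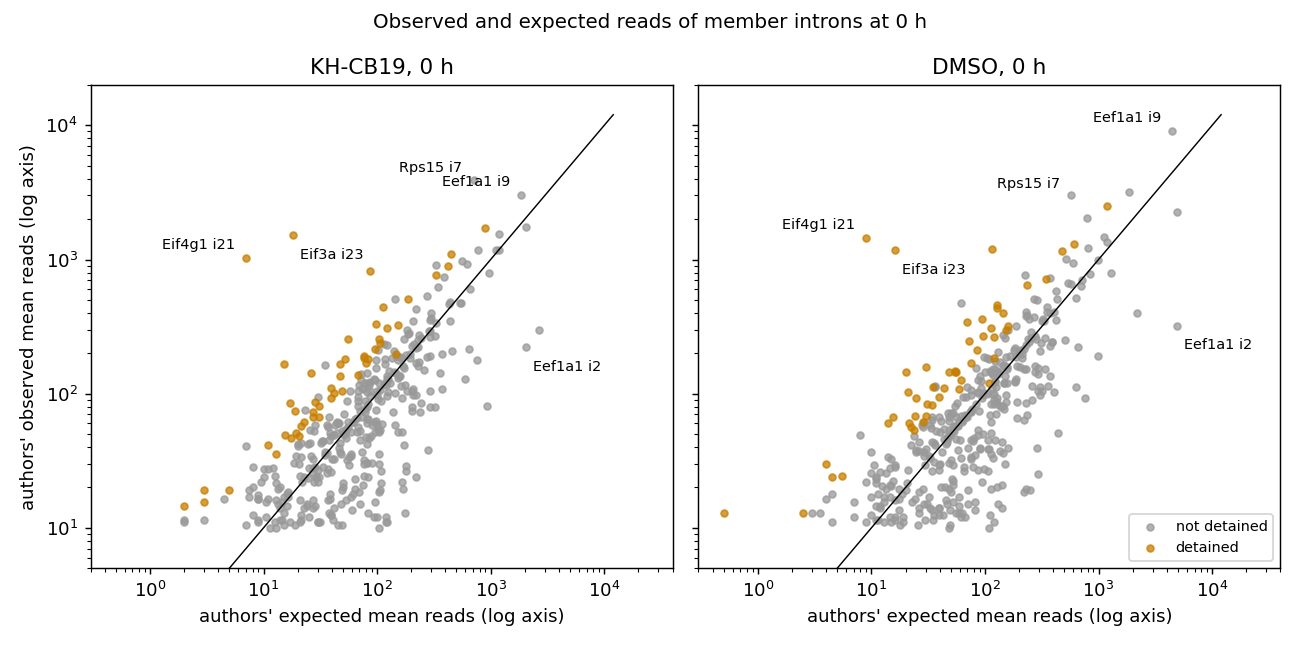
Observed against expected mean reads (authors' values, log axes) of member introns at 0 h, KH-CB19 left and DMSO right, detained introns in orange and the line at equality. Eif4g1 i21 and Eif3a i23 stand far above the line in both groups, and Eef1a1 i2 far below it.

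The 2 introns farthest above expectation were Eif4g1 intron 21 and Eif3a intron 23. Eif4g1, the scaffold of the cap-binding complex, had 1030 reads observed against 7.0 expected in KH-CB19 and 1446.5 observed against 9.0 expected in DMSO in an interval of 105 bases (mm9 chr16:20679852-20679956). Eif3a, the largest eIF3 subunit, had 1510.5 against 18.0 in KH-CB19 and 1170 against 16.0 in DMSO in an interval of 120 bases (mm9 chr19:60842287-60842406). The third, Rpl31 intron 8, rests on 13.0 reads observed against 0.5 expected in DMSO and was under the coverage limit in KH-CB19.

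To see what these intervals contain, the table's intervals were laid over GENCODE M21 gene models by counting from introns of equal length in the same gene, which worked for 359 member intervals in 83 genes, 47 of them detained. Of those 47, 13 (27.7%) held bases that are coding in at least 1 transcript, against 47 of 312 placed intervals outside the detained class (15.1%). In 8 of the 13 at least some of these bases were exonic in every coding transcript that spans them. The intervals in Eif4g1 and Eif3a lay wholly inside a coding exon, and Eif4g2 intron 31 held 181 coding bases of 271. In Eif4g1 the whole interval was exonic in every spanning coding transcript, but in Eif3a no base was. Eif4g2 encodes an eIF4G relative that works without the cap-binding protein.

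The exon bases that lie inside such intervals are shown in capitals, with exon bases outside the interval in lower case, 5′ to 3′ from GENCODE M21 transcripts, for the 2 largest excesses, for Eif4g2 and for the rise in Rpl7. The Eif4g1 capitals begin with GT and end with AG, the letters that bound most introns, and the Eif3a capitals begin with GC and end with AG.
Eif4g1 intron 21: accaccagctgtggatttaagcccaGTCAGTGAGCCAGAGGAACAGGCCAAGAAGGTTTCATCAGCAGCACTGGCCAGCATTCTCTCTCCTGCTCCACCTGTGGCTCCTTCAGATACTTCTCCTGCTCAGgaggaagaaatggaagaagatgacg
Eif3a intron 23: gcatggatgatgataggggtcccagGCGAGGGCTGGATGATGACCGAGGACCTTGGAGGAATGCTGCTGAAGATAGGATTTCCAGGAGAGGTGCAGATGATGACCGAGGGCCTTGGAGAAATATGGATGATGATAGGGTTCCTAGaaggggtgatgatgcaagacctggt
Eif4g2 intron 31: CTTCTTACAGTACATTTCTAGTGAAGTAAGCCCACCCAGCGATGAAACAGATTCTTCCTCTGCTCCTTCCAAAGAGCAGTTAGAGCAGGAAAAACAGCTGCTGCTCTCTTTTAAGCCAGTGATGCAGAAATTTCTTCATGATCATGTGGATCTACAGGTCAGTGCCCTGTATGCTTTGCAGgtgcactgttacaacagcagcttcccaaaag
Rpl7 intron 7: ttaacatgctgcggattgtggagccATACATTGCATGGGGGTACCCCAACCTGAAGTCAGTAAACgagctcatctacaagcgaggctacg

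In Rpl7 the interval takes in 15 bases of one exon and 25 of the next around the intron. Reads of fully spliced mRNA can fall on such bases. Of the 3 introns described that rose at 2 h, Rpl7 intron 7 thus holds 40 coding bases, and Eif3b intron 15 and Eif2a intron 11 hold none. Eef2 intron 9 held 77 coding bases of 169, and Eif3i intron 11 held 87 of 1547. The 13 intervals with coding bases had a median log2 ratio of observed to expected of 1.87 in DMSO at 0 h, against 1.45 for the 34 without, and a median length of 169 bases against 890 bases. Their median log2 ratio at 2 h was 0.11, against -0.02 for the 34. The part of mRNA reads in these values was not tested.

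**Figure D4:**
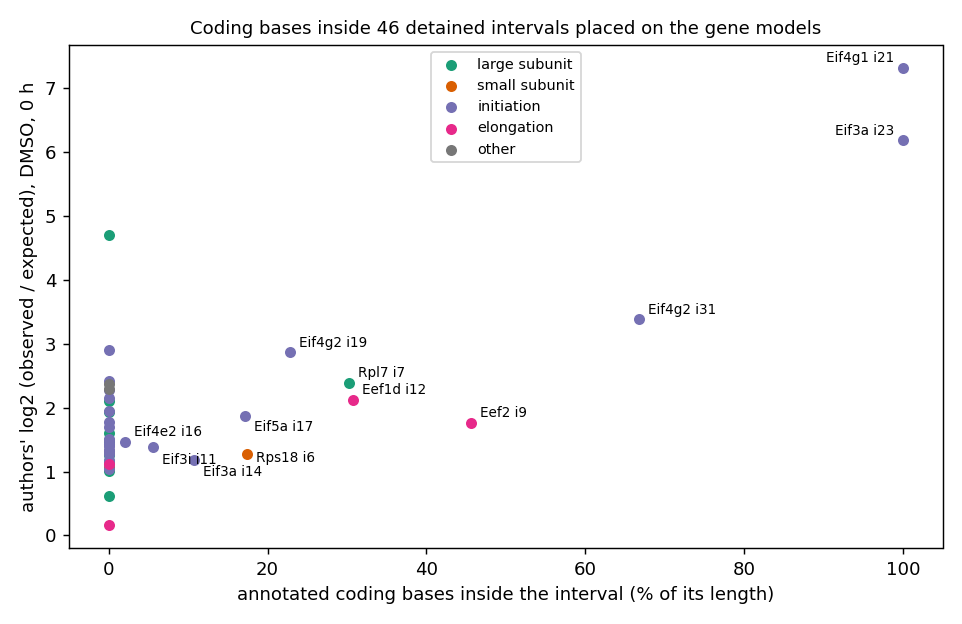
Share of each placed detained interval that is annotated coding sequence (horizontal, % of its length) and the authors' log2 ratio of observed to expected reads in DMSO at 0 h (vertical) for 46 introns, coloured by role. The 2 intervals that are wholly coding, Eif4g1 i21 and Eif3a i23, have the highest ratios, 7.33 and 6.19, and 34 intervals hold no coding base.

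Ribosomal protein genes have many processed copies in the mouse genome. Of the 127 genes, 60 have a pseudogene that carries their name, 76 have a near-identical coding sequence in another annotated gene (at least 95% identity over at least 90% of its length) and 82 have either: 69 of 76 ribosomal protein genes against 13 of 51 factor genes. Of the 52 detained introns, 25 lie in such genes. The search for near-identical sequences compared only the longest coding sequence of each gene, so it can miss copies. Rps12 and Rpl31, with 23 named pseudogenes each, had no near-identical sequence by it. Processed copies lack introns, and their exon sequence resembles the exon bases inside the intervals described above. How the authors placed reads that match several loci is not given in the sources used here. Rpl7 has 3 named pseudogenes, and Eif3b and Eif2a have neither kind of copy by these measures.

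KH-CB19 and DMSO groups at 0 h were harvested as soon as the compound or solvent was added. After centring on the median of all introns with both values, the members' median log2 difference in observed reads was -0.02 over 407 introns. Summed over introns, Eef1a1 had the lowest KH-CB19 to DMSO ratio of 4272 genes with at least 50 reads in DMSO, with 7078.5 reads in KH-CB19 against 16948 in DMSO, a centred log2 difference of -0.93. At the other end Rpl36 had 452.5 reads in KH-CB19 against 323.5 in DMSO (0.82), Rps21 had 247 against 189 (0.72) and Rpl32 had 1447.5 against 1128 (0.69), all above the 99th percentile of genes. Each of these genes, Eef1a1 included, has a copy by either measure above, and the Eef1a1 intervals could not be placed on the gene models. By role the median over genes was 0.04 for the large subunit, -0.01 for the small subunit, 0.00 for initiation factors and -0.20 for elongation factors, of which 5 of 6 genes were below 0. Only group means were used for these values and no test was made.

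**Figure D5:**
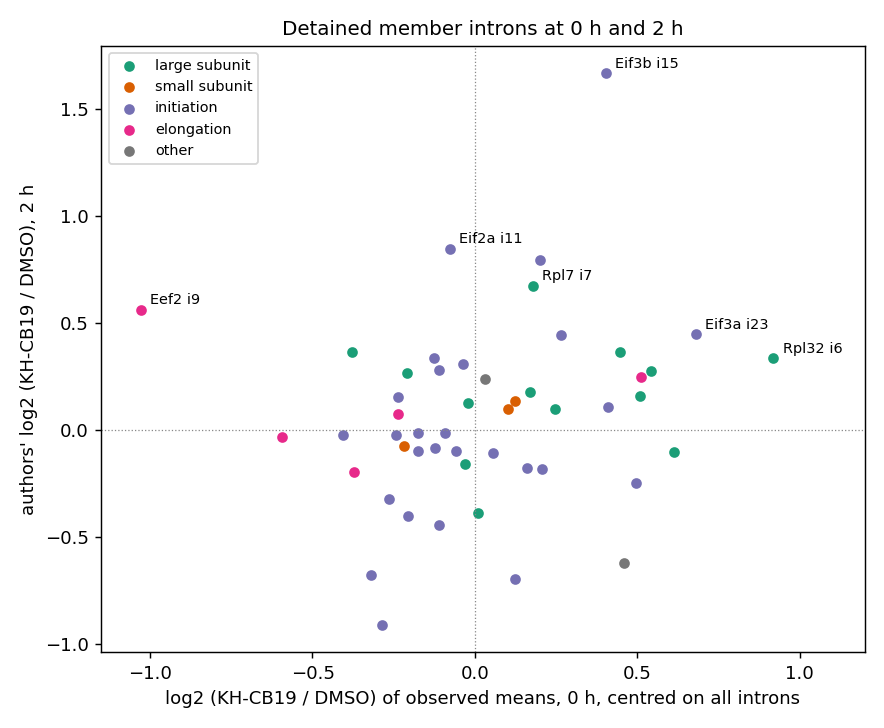
Detained member introns by their log2 KH-CB19 to DMSO ratio of observed means at 0 h, centred on all introns (horizontal), and the authors' log2 ratio at 2 h (vertical), coloured by role. Eif3b i15 lies highest, and Eef2 i9 lies left of 0 at 0 h and above 0 at 2 h.

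Other genes that serve translation were read from lists beside the members. Over all 3454 detained introns 5.47% rose and 4.17% fell, and no list was tested against these shares. None of 28 detained introns of aminoacyl-tRNA synthetase genes and none of 11 of mitochondrial ribosomal protein genes passed the threshold in either direction. In the 5 detained introns of termination and recycling genes 1 rose, Gspt1 intron 9 in the release factor eRF3a gene, with 301 normalised reads in KH-CB19, 63.6 in DMSO and an adjusted p of 1.41e-17 in the authors' deposited table. Among 19 detained introns of translational control genes 1 fell, Rps6kb1 intron 16 in the S6 kinase gene, with 40.5 in KH-CB19, 88.5 in DMSO and an adjusted p of 0.00792 in the authors' deposited table. In ribosome biogenesis genes 3 of 90 detained introns rose and 1 fell, both smaller shares than over all detained introns. The 3 rises were Rrp15 intron 2, Nvl intron 24 and Heatr1 intron 34, for which the authors' deposited table gives log2 ratios of 0.99, 0.99 and 1.02. The fall was Mdn1 intron 98, with 2.05 normalised reads in KH-CB19 and 16.7 in DMSO.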

How the data were processed

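Per the labels' protocols, polyadenylated RNA was made into stranded libraries and sequenced in pairs. The build mm9 and the tools DESeq, Cufflinks 2.1.1, TopHat2 2.0.9, Bowtie 1.0.0, bedtools 2.17.0 and SAMtools 0.1.19 are named per the submitters' processing notes, without order or settings. The deposited table holds, per the file headers, observed and expected mean read counts at 0 h, normalised mean reads at 2 h (a signal), log2 ratios and adjusted p-values, all made by the authors from 2 libraries a group; introns under a coverage limit have a word in place of a value. A model of counts per library had been planned, but the values are group means, so the authors' adjusted p-values were used at 0.05, with no new test. The 2 libraries' own spread is not known. The table's starts count from 0 and are printed from 1.

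Member introns were matched by length to GENCODE M21 introns (324 of 444 matched once). Intervals were placed in genes with at least 2 such introns at 1 constant distance, which assumes no insertion or deletion between builds within the gene; no position was carried over. Copies were sought with blastn 2.17.0. Ratios of 0 h means used a pseudocount of 1. Sums and medians were computed with pandas 2.3.3 and counting was tested on simulated data. Named introns were all detained members, the 5 highest and 5 lowest 0 h ratios in DMSO with at least 50 reads outside that class (1 per gene), its 3 highest observed means, and up to 4 introns per pathway list. The members and lists were chosen with earlier results of these data known. Alternatives covered the threshold, a minimum of 50 reads, pseudocounts, scaling and the genes kept. The values of 1 gene are not reported here, in the text or the figures; it stays in all counts and medians.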

Additional observations from a re-analysis of the deposited data

How the results depend on the processing

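No paired analysis was possible because the columns used are group means, and for the same reason no library could be left out; both had been planned and were not run. At 2 h the count of rises was 4, and was 1 at an adjusted p below 0.01, 5 below 0.1, 3 without genes that have a named pseudogene, and 2 without intervals that hold coding bases, an alternative chosen after seeing the data; no fall was counted under any alternative that was run. At 0 h, 102 introns in KH-CB19 and 125 in DMSO were below expectation. With observed means of at least 50 reads these were 40 in KH-CB19 and 49 in DMSO, and calls above became the more frequent, 76 in place of 93 in KH-CB19 and 80 in place of 95 in DMSO. Without genes that have a named pseudogene they were 57 in KH-CB19 and 73 in DMSO, with 60 above expectation in KH-CB19 in place of 93. Without genes that have a near-identical coding sequence elsewhere, also chosen after seeing the data, 46 were above and 41 below in KH-CB19, and 53 above and 56 below in DMSO. Genes such as Rps12 and Rpl31, for which that search found no copy, stayed in. The other alternatives run left these counts within 1.5 times, and pseudocounts left both medians of observed to expected reads at 0.00. Unscaled, the members' median KH-CB19 to DMSO log2 ratio at 0 h was -0.33 in place of -0.02, because all introns had a median of -0.31. For the 52 introns with 2 h values, all 156 recomputed ratios with pseudocounts or centring lay within the 95% Wilson interval of the 2 means, which covers counting error only. Centring moved every ratio by the same very small amount and pseudocounts only shrink ratios, so little else could have come out. With 2 libraries a group and group means alone, a rise near the threshold such as that of Rpl7 has no check against single libraries, and introns under the coverage limit cannot be read as absent.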

Other observations

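Many ribosomal protein introns carry small nucleolar RNAs, which guide chemical modification of ribosomal RNA and are released after splicing. Of the 324 member introns matched once to an annotated intron, 30 held an annotated small RNA, and 1 of these 30, Rpsa intron 5, was detained. The median log2 ratio of observed to expected reads in DMSO at 0 h was 0.00 for the 30 and 0.00 for the rest. By place, 279 of the 324 lay between coding exons, 21 in the 5′ and 2 in the 3′ untranslated part, and 22 in transcripts with no coding sequence. Of the 36 matched introns that were detained, 9 (25%) lay whole inside an exon of another annotated transcript of the gene, against 54 of 288 outside the class (18.8%).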
